A study of Homo sapiens with 6 samples.

Results

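Epithelial-mesenchymal transition (EMT) is the programme by which epithelial cells give up their junctions and become motile, and it is driven by a small number of transcription factors. The genes described here are 10 regulators of this programme, listed by name: the mesenchymal factors ZEB1, ZEB2, SNAI1, SNAI2, TWIST1, TWIST2 and PRRX1, and the epithelial regulators OVOL1, GRHL2 and ESRP1. All 10 were found among the 64253 gene identifiers of the count table by their symbols. RNA was measured in NCI-H1299, an established human lung cancer cell line that the labels call lung adenocarcinoma. The first group was NCI-H1299 cells carrying an expression plasmid for mCherry-tagged MTSS1, and the second was wild type NCI-H1299 cells, with 3 libraries each. MTSS1 encodes a membrane-binding scaffold protein of the actin cytoskeleton. Per the labels, the overexpressing cells were kept under hygromycin and sorted by flow cytometry, and HEK293T cells are named as part of the transfection. The labels name no cells with an empty plasmid, so MTSS1 cannot be told apart from the tag, the selection or the sort. They do not say whether the overexpressing line was 1 clone, nor that the libraries of a group came from cultures grown apart. A p-value here therefore reflects the spread between these libraries alone, which may be technical.

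ZEB1 and ZEB2 are zinc finger and homeobox proteins, and SNAI1 and SNAI2 are zinc finger proteins. These 4 repress epithelial genes such as CDH1 by binding E-boxes, short DNA motifs of the form CANNTG, in their promoters. TWIST1 and TWIST2 are basic helix-loop-helix factors that also act through E-boxes, and PRRX1 is a homeobox factor of the embryonic mesenchyme that can drive EMT. On the epithelial side, OVOL1 is a zinc finger repressor, GRHL2 is a grainyhead-like activator of junction genes, and ESRP1 is an RNA-binding protein that sets epithelial splicing. The microRNAs of the miR-200 family hold ZEB1 and ZEB2 down in epithelial cells, and the ZEB factors in turn repress the miR-200 genes.

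Libraries held 13883380 to 25741708 counts in MTSS1-overexpressing cells and 19018751 to 29479453 in wild type cells. Levels are given in CPM, which are counts divided by library size after adjusting the libraries to each other with TMM. MTSS1 stood at 544 to 568 CPM in overexpressing cells, against 18.0 to 24.3 CPM in wild type cells. The replicate 1 libraries of both groups stood apart from the other 4 on the first principal component, which held 34.8% of the variance. They also had the fewest counts of all libraries, 13883380 in overexpressing cells and 19018751 in wild type cells. The second component, with 32.9%, separated the groups. The surfactant genes SFTPB and SFTPC had at most 0.0400 CPM in any library, and NKX2-1, the lung lineage factor, stood at 2.35, 2.61 and 2.92 CPM in overexpressing cells and at 1.59, 0.628 and 1.39 CPM in wild type cells. CDH1, which encodes E-cadherin, had 0, 3 and 4 counts in overexpressing libraries and 0, 1 and 3 in wild type libraries, too few to test. VIM, which encodes the mesenchymal filament protein vimentin, averaged 4704 ± 118.8 CPM in overexpressing cells and 4400.2 ± 121.3 CPM in wild type cells (SD, n = 3 each).

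Of the 10 genes, 7 had enough counts to be tested and 1 passed the test. PRRX1 was lower in MTSS1-overexpressing cells, but its call was lost in every fit without 1 library and against its neighbouring genes, as given below. None of the other 6 tested genes passed in either direction, which does not show that they were unchanged. The test was edgeR's quasi-likelihood test with Benjamini-Hochberg adjustment over all 16091 genes tested and a threshold of 0.05, and 4.28% of those genes passed it, 1.82% higher and 2.45% lower. With 1 call among 7, the share of genes called cannot be set apart from this background. SNAI2, OVOL1 and GRHL2 fell below the filter on low counts.

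**Figure D1:**
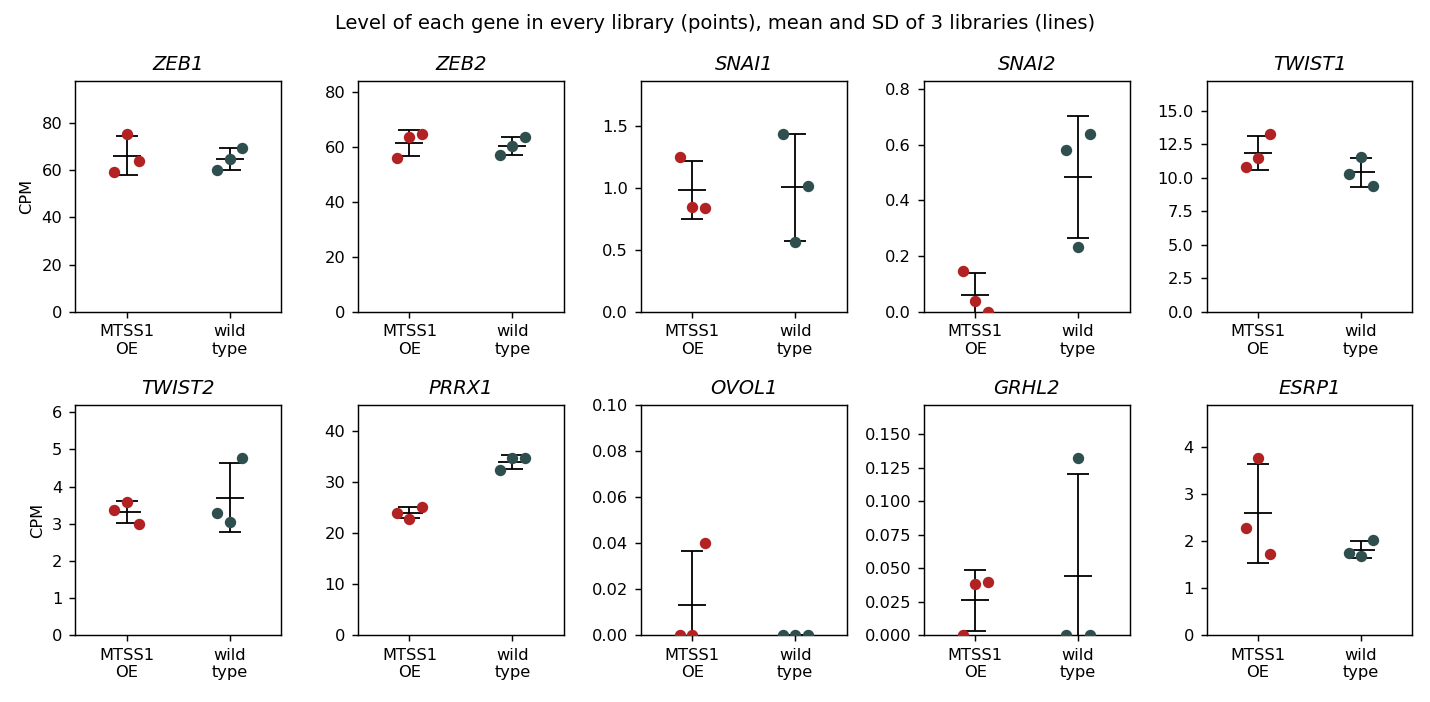
Level of each of the 10 genes in CPM (vertical axis, linear from 0, its range set for each gene) in the 3 MTSS1-overexpressing libraries (left) and the 3 wild type libraries (right), with lines at the mean and 1 SD on either side. The 3 overexpressing values of PRRX1, 22.8 to 25.0 CPM, all lie under the 3 wild type values, 32.3 to 34.7 CPM, whereas the 2 groups of points overlap for ZEB1, ZEB2, SNAI1, TWIST1, TWIST2 and ESRP1.

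ZEB1 (ENSG00000148516, chr10:31318495-31529814, plus strand, GRCh38) had 59.1, 75.2 and 63.8 CPM in overexpressing cells, against 60.2, 64.6 and 69.2 CPM in wild type cells. The highest and the lowest value both belonged to overexpressing libraries, so the groups overlapped throughout. The log2 fold change of overexpressing over wild type cells was 0.03 (95% interval -0.21 to 0.27, edgeR adjusted p = 0.92). ZEB2 (ENSG00000169554, chr2:144364364-144524583) stood at 56.0, 63.5 and 64.5 CPM in overexpressing cells and at 56.8, 60.2 and 63.5 CPM in wild type cells. Its log2 fold change was 0.03 as well (95% interval -0.18 to 0.23, edgeR adjusted p = 0.91). As folds, the intervals ran from 0.866 to 1.21 for ZEB1 and from 0.885 to 1.17 for ZEB2. The ratio of ZEB1 to ZEB2 in CPM lay between 0.989 and 1.18 in overexpressing libraries and between 1.06 and 1.09 in wild type libraries.

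The miR-200 family falls into a pair of seed groups, and the mature sequences are shown because ZEB1 and ZEB2 carry unusually many matches to them. They are given 5′ to 3′ from RefSeq (GRCh38.p14), with the seed, bases 2 to 8, in capitals. The first 3 share one seed and the last 2 share the other.
hsa-miR-200b-3p: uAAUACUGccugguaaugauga
hsa-miR-200c-3p: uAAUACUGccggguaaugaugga
hsa-miR-429: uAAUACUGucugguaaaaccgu
hsa-miR-200a-3p: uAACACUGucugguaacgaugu
hsa-miR-141-3p: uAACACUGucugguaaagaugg

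The matches to these seeds are CAGTATT for the first group and CAGTGTT for the second, searched on the transcript strand of the longest annotated 3′ untranslated region of each coding gene in GENCODE 29. ZEB1 had 6 matches of the first kind and 3 of the second in 2549 bases, and ZEB2 had 5 and 4 in 5370 bases. Only 6 of 19133 genes (0.0314%) had 9 or more matches, ZEB1 and ZEB2 among them, and 28.3% had at least 1. ESRP1 had 2, SNAI2 and GRHL2 had 1 each, and SNAI1, TWIST1, TWIST2, PRRX1 and OVOL1 had 0. A match is a run of letters and was not tested as a working site. The first match in each ZEB transcript is shown with 10 bases on either side and the match in capitals; it begins at base 369 of the region in ZEB1 and at base 392 in ZEB2.
ZEB1: tttatcttatCAGTATTatcactctta
ZEB2: taccatacatCAGTATTtttattatta

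The host transcript of miR-200c and miR-141, MIR200CHG, was listed at 0 counts in all 6 libraries. The libraries were made from poly(A) RNA, and mature microRNAs are not measured in them.

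SNAI1 (ENSG00000124216, chr20:49982999-49988886), the repressor best known for silencing CDH1, was low in both groups. It stood at 1.25, 0.846 and 0.841 CPM in overexpressing cells, against 1.43, 0.562 and 1.01 CPM in wild type cells. Its log2 fold change was -0.04 with a wide 95% interval, -1.04 to 0.97 (edgeR adjusted p = 0.97). As a fold, the interval ran from 0.486 to 1.96 of the wild type level, so a change within this range is not excluded. SNAI2 (ENSG00000019549, chr8:48917604-48921740), known as Slug, had 2, 1 and 0 counts in the overexpressing libraries and 11, 7 and 17 counts in the wild type libraries. The groups did not overlap, as in 25.5% of all tested genes, 13.5% with the overexpressing cells lower. Those shares come from genes that passed the filter on low counts, which SNAI2 did not, so they are not matched to its level. The pooled counts were 3 in overexpressing cells and 35 in wild type cells. Scaled for library size, the level of wild type over overexpressing cells was 9.96 (exact 95% interval 3.14 to 50.6, which covers counting error only). SNAI2 was below the filter on low counts. In a fit of all 28676 genes with any count its log2 fold change was -3.12, which did not pass (edgeR adjusted p = 0.058). With 1 library left out it passed the filter in 4 of the 6 fits, with an edgeR adjusted p between 0.10 and 0.26. It entered those fits through its wild type counts alone. They could therefore only show it lower in overexpressing cells and give no separate support.

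TWIST1 (ENSG00000122691, chr7:19020991-19117672) stood at 10.8, 11.5 and 13.2 CPM in overexpressing cells and at 10.3, 11.5 and 9.38 CPM in wild type cells. The highest overexpressing library exceeded every wild type library, but the others lay among them. The log2 fold change was 0.19 (95% interval -0.15 to 0.52, edgeR adjusted p = 0.55). TWIST2 (ENSG00000233608, chr2:238848032-238910543) stood at 3.38, 3.57 and 3.00 CPM in overexpressing cells, against 3.29, 3.04 and 4.77 CPM in wild type cells. A single wild type library, replicate 3, stood above the rest. Its log2 fold change was -0.16 (95% interval -0.72 to 0.40, edgeR adjusted p = 0.80), and without that library it was 0.07.

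PRRX1 (ENSG00000116132, chr1:170662728-170739419) had 24.0, 22.8 and 25.0 CPM in overexpressing cells, against 32.3, 34.6 and 34.7 CPM in wild type cells. The groups did not overlap, as was the case for 25.5% of all tested genes, 13.5% with the overexpressing cells lower. The mean was 24.0 ± 1.09 CPM in overexpressing cells, against 33.9 ± 1.33 CPM in wild type cells (SD, n = 3 each), a level 0.707 of that in wild type (log2 fold change -0.50, SE 0.10, edgeR adjusted p = 0.027). Taken as a ratio to ZEB1 in CPM, PRRX1 lay between 0.304 and 0.406 in overexpressing libraries and between 0.501 and 0.537 in wild type libraries. In bulk RNA, fewer cells that express a gene and less RNA per cell cannot be told apart. The direction was the same whichever single library was dropped, with log2 fold changes of -0.53 to -0.46, but none of these 6 fits called it (edgeR adjusted p 0.064 to 0.11). Without both replicate 1 libraries the log2 fold change was -0.53 and the edgeR adjusted p was 0.15. Taking the 6 libraries as 3 pairs by the closest title numbers, 1 of either group in each, gave a fit with a block, in which 22.7% of all genes passed and the edgeR adjusted p of PRRX1 was 0.0012.

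The fall in PRRX1 was set beside the genes around it, because a fall shared by a stretch of chromosome is not particular to 1 gene. The 50 tested genes nearest to PRRX1 lay within 4.32 Mb of it on chromosome 1. Their median log2 fold change was -0.33, with quartiles at -0.41 and -0.15, against a median of 0.0046 over all tested genes. Of these 50 genes, 40 had values under 0. In 26 the overexpressing libraries all lay under the wild type libraries, as in 13.5% of all tested genes. The test called 5 of the 50 neighbours (10.0%), all lower: MPZL1, DCAF6, BLZF1, GAS5 and ILDR2. Of all tested genes 2.45% were called lower. BLZF1 had a log2 fold change of -0.53, close to that of PRRX1. ILDR2, at -7.30, stood far from the rest with means of 0.0133 CPM in overexpressing cells and 3.27 CPM in wild type cells. It passed the filter through its wild type counts alone and could only be called lower. PRRX1 itself ranked low in its region, with 6 of the 50 neighbours at or under its value. When the median of its neighbours was taken off each gene's fold change within the fit, PRRX1 had a log2 fold change of -0.17 and did not pass (edgeR adjusted p = 0.47). In that fit 2.09% of all genes passed, 0.764% higher and 1.33% lower.

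**Figure D2:**
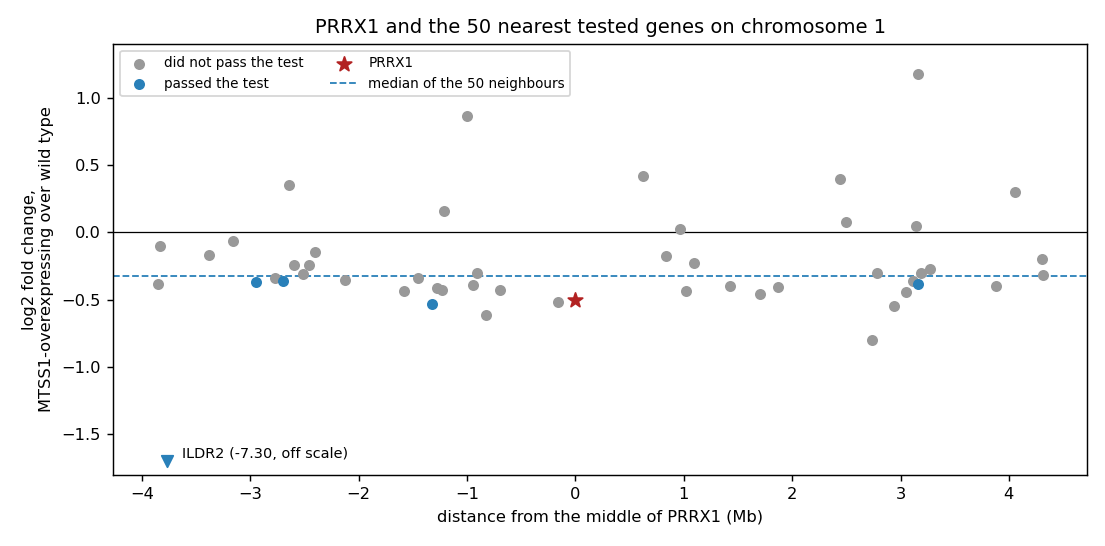
Log2 fold change of MTSS1-overexpressing over wild type cells (vertical axis) for PRRX1 (star) and its 50 nearest tested genes, by distance from the middle of PRRX1 in Mb (horizontal axis), with blue points for genes that passed the test and a dashed line at the median of the neighbours, -0.33. Most of the points, 40 of 50, lie under 0 on both sides of PRRX1, and ILDR2 is drawn as a triangle at the lower edge because its value of -7.30 lies off the scale.

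No other tested regulator lay in a region so far from 0 on the low side. ZEB1 lay in a region of the opposite kind, where its 50 neighbours on chromosome 10 had a median of 0.20. Of these, 39 had values above 0, and 6 were called, all higher. ZEB1-AS1, an antisense gene that overlaps ZEB1, was among the 6. Against its neighbours ZEB1 had a log2 fold change of -0.17 and did not pass (edgeR adjusted p = 0.52). The medians around ZEB2, SNAI1, TWIST1, TWIST2 and ESRP1 lay between -0.09 and 0.03. ZEB1 had no settled direction. Without taking its region into account, its log2 fold change was also under 0 when overexpressing replicate 2 (-0.068) or wild type replicate 1 (-0.018) was left out. None of these values passed the test.

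**Figure D3:**
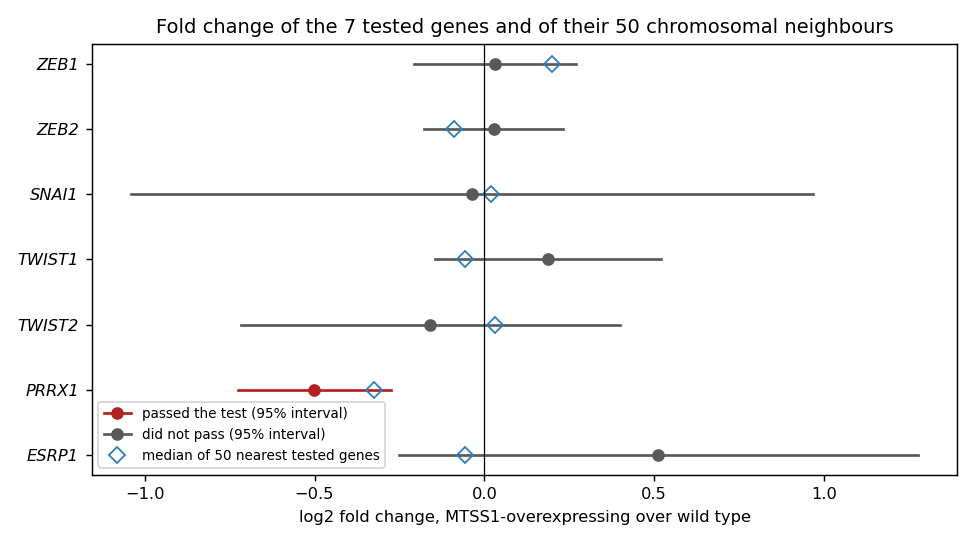
Log2 fold change of MTSS1-overexpressing over wild type cells (horizontal axis) for the 7 tested genes, with bars for the 95% interval and open diamonds for the median of the 50 nearest tested genes. PRRX1, in red, is the gene that passed the test, and the median of its neighbours, -0.33, lies inside its interval of -0.73 to -0.28.

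Of the 3 epithelial regulators, GRHL2 and OVOL1 were at or near the limit of detection. GRHL2 (ENSG00000083307, chr8:101492432-101669726) had 0, 1 and 1 counts in overexpressing libraries and 0, 4 and 0 counts in wild type libraries. OVOL1 (ENSG00000172818, chr11:65787022-65797219) had 0, 0 and 1 counts in overexpressing libraries and 0 in all 3 wild type libraries, which allows a level of up to 0.0396 CPM over the pooled wild type counts. No fold is given for either gene. Reads were not missing from the surroundings of OVOL1, where 36 of the 43 protein-coding genes within 500 kb were tested and 1 was at 0 in every library. Both protein-coding genes within 500 kb of GRHL2 were tested too. In 31.9% of the 50-base words of the longest OVOL1 transcript the sequence is shared with the antisense gene ENSG00000255404, which had 0 counts in overexpressing libraries and 5 in wild type libraries. ESRP1 (ENSG00000104413, chr8:94641074-94707466) was the epithelial regulator with enough counts to test. It stood at 2.28, 3.77 and 1.72 CPM in overexpressing cells and at 1.75, 1.69 and 2.03 CPM in wild type cells, with replicate 2 of the overexpressing cells well above the others. Its log2 fold change was 0.51 (95% interval -0.25 to 1.28, edgeR adjusted p = 0.47), and 0.13 without that library.

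To set the genes in order, CPM was divided by the length of each gene's merged exons in kb. ZEB1 was highest, at 7.63 ± 0.955 CPM per kb in overexpressing cells and 7.48 ± 0.522 CPM per kb in wild type cells (SD, n = 3 each, as in the next values). TWIST1 followed with 5.82 ± 0.624 CPM per kb in overexpressing cells and 5.12 ± 0.533 CPM per kb in wild type cells. PRRX1 came next at 2.90 ± 0.133 CPM per kb in overexpressing cells and 4.11 ± 0.161 CPM per kb in wild type cells. These 3 genes did not overlap with each other within a group. ZEB2 followed these with 2.45 ± 0.186 CPM per kb in overexpressing cells and 2.40 ± 0.133 CPM per kb in wild type cells. TWIST2 stood at 1.77 ± 0.155 CPM per kb in overexpressing cells and 1.97 ± 0.497 CPM per kb in wild type cells, and overlapped with ZEB2 among the wild type libraries. SNAI1 averaged 0.580 CPM per kb in overexpressing cells and 0.595 CPM per kb in wild type cells. ESRP1 averaged 0.531 CPM per kb in overexpressing cells and 0.374 CPM per kb in wild type cells, and its libraries overlapped with those of SNAI1 in both groups. SNAI2, GRHL2 and OVOL1 came last, under 0.2 CPM per kb in every library. The order was the same in both groups. It rests on the length used: over the longest transcript the ratio of ZEB1 to ZEB2 per kb, averaged over the 6 libraries, was 1.64 in place of 3.12, PRRX1 ranked 4 in overexpressing cells and 2 in wild type cells, and SNAI1 and ESRP1 changed places in overexpressing cells.

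The region upstream of ZEB1 holds E-boxes of the kind that the ZEB and SNAI factors bind, CAGGTG or its complement CACCTG. RefSeq (GRCh38.p14) gives ZEB1 7 start sites here, and the 250 bases before each were searched for these letters on both strands. There were 3 such boxes in 2 of the 7 windows, before the starts at chr10:31318417-31318417 and chr10:31319216-31319216, and the other 5 windows held none. They are shown here, 30 bases each on the plus strand with the box in capitals, because they lie within the span of the antisense gene described next.
ZEB1, chr10:31318348-31318377: ccgaggtgacagCAGGTGagggccgggtgc
ZEB1, chr10:31318966-31318995: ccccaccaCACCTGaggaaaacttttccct
ZEB1, chr10:31319119-31319148: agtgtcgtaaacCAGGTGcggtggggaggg

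Of all 35116 promoter windows of this length, 17.5% held CAGGTG or CACCTG, and 61.8% held the wider form CANNTG, which includes them. With 2 of 7 windows, ZEB1 cannot be set apart from this background. The windows of PRRX1 and TWIST2 held no CANNTG, and that of ZEB2 held 1. Windows of the other 6 genes were not analysed here.

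ZEB1-AS1 (ENSG00000237036, chr10:31206278-31320447, minus strand), a long noncoding RNA gene antisense to ZEB1 and overlapping its first exons, was higher in overexpressing cells, although ZEB1 itself did not pass the test. It was picked out after its values were seen. It stood at 12.1, 15.1 and 11.3 CPM in overexpressing cells, against 7.21, 8.24 and 7.58 CPM in wild type cells (log2 fold change 0.74, SE 0.16, edgeR adjusted p = 0.034). Its groups did not overlap, as in 25.5% of all tested genes, 12.1% with the overexpressing cells higher. With 1 library left out ZEB1-AS1 did not pass in any of the 6 fits (edgeR adjusted p 0.063 to 0.12). Against its neighbours the log2 fold change was 0.55 and the edgeR adjusted p was 0.13, and with the block the edgeR adjusted p was 0.0019. The kit marks the strand, but the strand setting of the counting is not given in the sources used here. Reads of ZEB1 and ZEB1-AS1 in the shared stretch cannot be told apart. The antisense gene of ZEB2, ZEB2-AS1, had 12 counts in overexpressing libraries and 16 in wild type libraries and was not tested.

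Around these 10 genes, lists of related genes were described by their counts and their median. Over all 16091 tested genes, 293 were higher and 395 lower, with a median log2 fold change of 0.0046. With the block, 1716 of the 16091 genes were higher and 1935 lower. The list counts with the block are to be read beside these. Among 18 tested genes of other EMT-linked transcription factors, 0 were higher and 2 lower, with a median of -0.08 (1 higher and 5 lower with the block). TCF12, an E-protein that pairs with TWIST factors, stood at 135, 134 and 144 CPM in overexpressing cells, against 175, 195 and 180.1 CPM in wild type cells (log2 fold change -0.42, SE 0.08, edgeR adjusted p = 0.023). SOX9, a factor of progenitor cells and of cartilage, stood at 67.2, 102.0 and 83.0 CPM in overexpressing cells and at 129.6, 127 and 146 CPM in wild type cells (log2 fold change -0.67, SE 0.14, edgeR adjusted p = 0.029). Neither gene overlapped between the groups, as in 25.5% of all tested genes, 13.5% with the overexpressing cells lower. Both were named because they passed the test, so this adds no separate support. The call of TCF12 held only without wild type replicate 1 among the fits without 1 library (edgeR adjusted p up to 0.086), and that of SOX9 only without overexpressing replicate 2 (up to 0.12). Against its neighbours SOX9 passed (log2 fold change -0.77, edgeR adjusted p = 0.028) and TCF12 did not (-0.24, edgeR adjusted p = 0.18).

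The list also holds PRRX2, the paralogue of PRRX1, and LEF1, a factor of the Wnt pathway, neither of which passed. PRRX2 averaged 0.800 ± 0.181 CPM in overexpressing cells and 1.49 ± 0.0453 CPM in wild type cells (SD, n = 3 each; edgeR adjusted p = 0.19). LEF1 averaged 10.5 ± 0.945 CPM in overexpressing cells and 15.0 ± 1.19 CPM in wild type cells (SD, n = 3 each; edgeR adjusted p = 0.064, 0.0094 with the block). Of 18 other epithelial regulators 6 were tested and 0 passed in either direction (median -0.11, 0 higher and 1 lower with the block). DESeq2 called 0 of the 6 as well. For GRHL1, the paralogue of GRHL2, the log2 fold change came to 0.50 (edgeR adjusted p = 0.24). For GATA3, KLF4 and KLF5, all factors of epithelial tissues, it came to -1.07, -0.35 and -0.13 (edgeR adjusted p = 0.19, 0.24 and 0.68). KLF4 is the gene that passed with the block (edgeR adjusted p = 0.025).

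Of 35 epithelial genes that ZEB and SNAI factors are known to repress, 20 had enough counts to test, and 0 were higher and 2 lower (median -0.11, 1 higher and 5 lower with the block). KRT8, a keratin of simple epithelia, stood at 68.8, 30.3 and 49.6 CPM in overexpressing cells, against 212, 136 and 147 CPM in wild type cells (log2 fold change -1.74, SE 0.27, edgeR adjusted p = 0.011). LSR, a protein of tricellular junctions, stood at 16.4, 7.03 and 12.6 CPM in overexpressing cells and at 33.5, 43.7 and 30.3 CPM in wild type cells (log2 fold change -1.60, SE 0.27, edgeR adjusted p = 0.014). In both genes every overexpressing library lay under every wild type library, as in 13.5% of all tested genes. Both were named because they passed the test, so this adds no separate support. Both also passed against their neighbours (edgeR adjusted p = 0.015 for KRT8 and 0.016 for LSR). The KRT8 call was lost without overexpressing replicate 3 (edgeR adjusted p = 0.055). The LSR call was lost without overexpressing replicate 3 (0.061) and without wild type replicate 2 (0.054).

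KRT18, the keratin that pairs with KRT8, stood at a log2 fold change of -0.80 without passing (edgeR adjusted p = 0.061, with the block 4.4e-06). For SPINT2, a protease inhibitor gene, the value was -1.03 (edgeR adjusted p = 0.074, with the block 0.0067). KRT8 and KRT18 overlap at their annotated ends and have processed pseudogenes, so their counts are uncertain. EPCAM, an adhesion molecule of epithelia, stood under 1 CPM in every library (log2 fold change 0.66, edgeR adjusted p = 0.44).

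**Figure D4:**
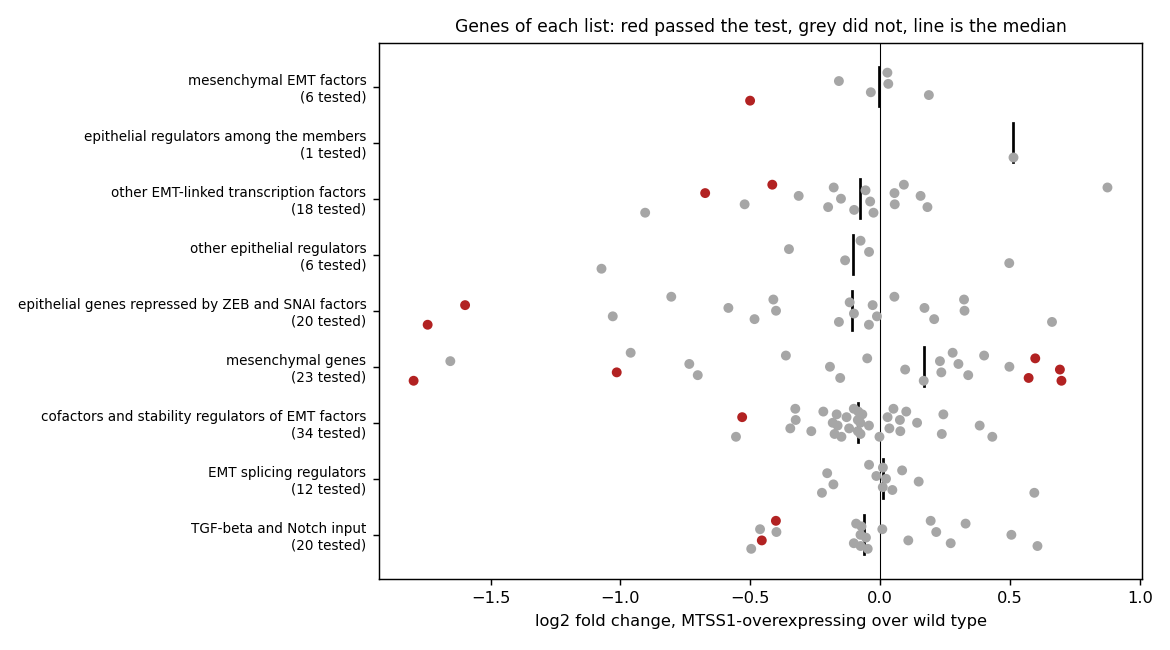
Log2 fold change of MTSS1-overexpressing over wild type cells (horizontal axis) for the tested genes of 9 lists, with red points for genes that passed the test, grey points for those that did not and a black line at each list's median. The mesenchymal list has red points on both sides of 0, 4 higher and 2 lower, and the epithelial genes repressed by ZEB and SNAI factors have 2 red points, KRT8 and LSR, at the low end.

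Of 28 mesenchymal genes 23 were tested, and 4 were higher and 2 lower, with a median of 0.17 (7 higher and 7 lower with the block). The higher genes code for matrix and contractile proteins. On the log2 scale, the collagen VI genes COL6A1 and COL6A2 rose by 0.69 and 0.60 (edgeR adjusted p = 0.014 and 0.027). FN1, which encodes fibronectin, rose by 0.57 (edgeR adjusted p = 0.038). ACTA2, which encodes smooth muscle actin, rose by 0.70 (edgeR adjusted p = 0.024). Of the lower genes, SPARC, a matrix glycoprotein gene, averaged 1.48 ± 0.697 CPM in overexpressing cells and 4.94 ± 0.884 CPM in wild type cells (SD, n = 3 each; edgeR adjusted p = 0.022). NT5E, which encodes the surface enzyme CD73, stood at 723, 712 and 764 CPM in overexpressing cells, against 1260.3, 1800.0 and 1381 CPM in wild type cells (log2 fold change -1.01, SE 0.13, edgeR adjusted p = 0.0044). NT5E was the one of these 6 genes to pass in all 6 fits without 1 library. COL6A1 was lost without overexpressing replicate 2 or wild type replicate 2 or 3. COL6A2 passed only without overexpressing replicate 3 or wild type replicate 1, SPARC only without replicate 1 of either group, and FN1 and ACTA2 in 0 of those fits. The highest edgeR adjusted p of these 4 genes lay between 0.086 and 0.14. With the neighbour offset 2 were higher and 2 lower, since COL6A2 and FN1 no longer passed (edgeR adjusted p = 0.075 and 0.067), and FN1 did not pass without scaling either (edgeR adjusted p = 0.054). For the textbook markers VIM and CDH2, which encodes N-cadherin, the log2 fold change was 0.10 and -0.05 (edgeR adjusted p = 0.58 and 0.86). Against its neighbours on chromosome 10, whose median was 0.33, VIM had a log2 fold change of -0.23 and did not pass (edgeR adjusted p = 0.21).

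The cofactors that ZEB, SNAI and TWIST factors work through, together with the enzymes that set their stability, made a list of 36, of which 34 were tested. None was higher and 1 was lower, with a median of -0.08 (3 higher and 10 lower with the block). PAK1, a kinase that phosphorylates SNAI1, stood at 44.5, 48.4 and 44.9 CPM in overexpressing cells, against 66.4, 66.3 and 66.5 CPM in wild type cells (log2 fold change -0.53, SE 0.08, edgeR adjusted p = 0.010). Its call was lost without overexpressing replicate 3 (0.054) and without wild type replicate 3 (0.058). Its 50 neighbours on chromosome 11 had a median of -0.32, and against them it did not pass (log2 fold change -0.22, edgeR adjusted p = 0.25). EZH2, the methyltransferase of Polycomb, the kinase ATM and the chromatin protein HMGA1 just missed the threshold at log2 fold changes of 0.38, -0.35 and -0.56 (edgeR adjusted p = 0.060, 0.057 and 0.062). With the block, in which 22.7% of all tested genes passed, these 3 passed (0.0011, 0.0014 and 8.3e-06). EHMT2 was listed at 0 in every library and lies in a span of chromosome 6 in which 141 of 179 protein-coding genes were, so its level cannot be read.

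Of 12 tested splicing regulators linked to EMT, 0 passed in either direction (median 0.01, 0 higher and 1 lower with the block). DESeq2 called 0 of the 12 as well. The log2 fold change was 0.59 for RBFOX2, which sets mesenchymal splicing (edgeR adjusted p = 0.39), and it was -0.18 for QKI and -0.20 for MBNL2 (edgeR adjusted p = 0.33 and 0.42). MBNL1 averaged 291 ± 13.9 CPM in overexpressing cells and 340.1 ± 13.5 CPM in wild type cells (SD, n = 3 each; edgeR adjusted p = 0.14, 0.0037 with the block). For ESRP2, the paralogue of ESRP1, it was -0.04 (edgeR adjusted p = 0.98).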

How the data were processed

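The authors deposited unnormalized counts, whole numbers for each Ensembl gene. Per the submitters' processing notes, bcl2fastq, HISAT2 2.1.0, HTSeq and GRCh38 were used; the annotation release and strand setting used in counting were not given in the sources used here. Per the labels' protocols, libraries came from the poly(A) fraction of 200 ng RNA, prepared with a directional kit, and were read for 50 cycles. Symbols and coordinates were found for 56591 of 64253 identifiers (gene tables, then GENCODE 29).

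Counts were tested with edgeR 4.0.16 (R 4.3.3; TMM, filterByExpr, glmQLFit, two-sided) over all 16091 genes passing the filter. The biological coefficient of variation was 0.162. The procedure was tested on simulated data. No library was a copy of another: within groups, the chi-square between replicates, divided by its degrees of freedom, was 14.7 to 28.0. Alternatives were other scalings, no filter, DESeq2 1.42.0, limma voom 3.58.1, libraries left out, a neighbour offset (the median log2 fold change of the 50 nearest tested genes) and a block of neighbouring title numbers. No label ties these numbers to a day or batch. Across genes, however, the distances of paired libraries from their group means correlated at 0.66, 0.34 and 0.38. Between libraries of different pairs the values were -0.40 to 0.10. Since each distance is taken from the mean of the library's own group, higher values within pairs bring lower ones between pairs.

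The members and lists were chosen with earlier results of these data known. Named genes are the 10 members, MTSS1, CDH1, CDH2, VIM, EPCAM, and from each other list every gene past the threshold, or the smallest p-values up to 4 in all. Other names were chosen after their values were seen. For the leukocyte markers, 1 gene is not reported here. Intervals from counts cover counting error only.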

Additional observations from a re-analysis of the deposited data

How the results depend on the processing

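Among the 10 genes, the 1 call stayed 1 with each other scaling, without the filter, with DESeq2, with limma voom and with the replicate block, and fell to 0 with the neighbour offset, without both replicate 1 libraries and in each fit without 1 library (0 to 0). Over all genes the 688 calls became 1489 without the filter, 1188 with DESeq2, 3651 with the replicate block, 132 without both replicate 1 libraries, 337 with the offset and 145 to 346 without 1 library. The 15 calls among 143 tested genes of the other lists became 29, 25, 52, 7 and 9 in the same order of settings, and 3 to 9 without 1 library. The fits without the filter and with DESeq2 held 28676 genes in place of 16091, and 187 list genes in place of 143. Their counts of calls are therefore not out of the same number of genes. The block changed no call among the 10 genes. The per kb ratio of ZEB1 to ZEB2 was 1.64 over the longest transcript. The cause of these shifts was not tested.

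Signs turned for 12 genes, none of which passed in any fit. With the offset the log2 fold change was -0.17 for ZEB1, -0.23 for VIM and 0.0056 for QKI. With limma voom it was 0.066 for SNAI1, which also stood at 0.029 with the block and at 0.10 without both replicate 1 libraries. Without 1 library it ranged from -0.068 to 0.11 for ZEB1, from -0.012 to 0.096 for ZEB2, from -0.33 to 0.29 for SNAI1, from -0.29 to 0.068 for TWIST2, from -0.12 to 0.041 for CDH2, from -0.052 to 0.45 for COL1A1, from -0.048 to 0.83 for COL3A1, from -0.50 to 0.44 for PDGFRB, from -0.13 to 1.02 for PTPRC and from -0.54 to 0.47 for CD79A. The counts of SNAI2, OVOL1 and GRHL2 limit what can be said of them.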

Other observations

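Upstream of the EMT factors, 20 genes of TGF-beta and Notch signalling were tested, and 0 were higher and 2 lower, with a median log2 fold change of -0.06 (2 higher and 4 lower with neighbouring title numbers as a block). TGFBR2, the type II receptor of TGF-beta, stood at 66.1, 53.8 and 59.9 CPM in overexpressing cells, against 82.5, 74.1 and 89.7 CPM in wild type cells (log2 fold change -0.46, SE 0.11, edgeR adjusted p = 0.044). It passed against its neighbours, whose median was 0.12 (log2 fold change -0.58, edgeR adjusted p = 0.028). RBPJ, the DNA-binding partner of Notch, averaged 138 ± 12.5 CPM in overexpressing cells and 182 ± 6.86 CPM in wild type cells (SD, n = 3 each; log2 fold change -0.40, edgeR adjusted p = 0.037). Its neighbours had a median of -0.22, and against them it did not pass (-0.18, edgeR adjusted p = 0.37). Neither call held in any of the 6 fits without 1 library (highest edgeR adjusted p 0.16 for TGFBR2 and 0.14 for RBPJ). SMAD3, which carries the TGF-beta signal to the nucleus, missed the threshold at -0.40 on the log2 scale (edgeR adjusted p = 0.081), and so did the SMAD inhibitor gene SKIL at -0.50 (edgeR adjusted p = 0.096). With the block, in which 22.7% of all tested genes passed, both passed (0.00055 and 0.011).

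Of 6 microRNA host transcripts 2 were tested. MIR100HG, the host of miR-100 and miR-125b, stood at 59.8, 65.4 and 76.8 CPM in overexpressing cells, against 98.8, 113 and 119 CPM in wild type cells (log2 fold change -0.71, SE 0.11, edgeR adjusted p = 0.011). Its call was lost without overexpressing replicate 2 (0.054), without wild type replicate 3 (0.058) and against its neighbours (log2 fold change -0.48, edgeR adjusted p = 0.067). MIR17HG averaged 1.89 ± 0.312 CPM in overexpressing cells and 0.892 ± 0.127 CPM in wild type cells (SD, n = 3 each; edgeR adjusted p = 0.11, 0.037 with the block).

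Markers of other cells were low in both groups. Of 8 fibroblast markers 4 were tested and 0 passed; their summed level was 4.88 to 8.88 CPM in overexpressing libraries and 4.47 to 6.15 CPM in wild type libraries. Of 6 endothelial markers 1 was tested and did not pass (summed level 1.80 to 2.35 CPM in overexpressing libraries and 2.45 to 4.62 CPM in wild type libraries). Of 7 leukocyte markers, with a summed level of 10.1 to 12.9 CPM in overexpressing libraries and 5.62 to 7.97 CPM in wild type libraries, 5 were tested and 1 was higher, with a median log2 fold change of -0.15 over the 5. For CD68, a macrophage lysosomal marker, the log2 fold change was -0.78 (edgeR adjusted p = 0.25). The higher gene was ITGAM, which encodes an integrin subunit, at 8.81, 6.03 and 9.65 CPM in overexpressing cells, against 3.66, 3.14 and 3.90 CPM in wild type cells (log2 fold change 1.19, SE 0.22, edgeR adjusted p = 0.021). This call held only without overexpressing replicate 2 among the fits without 1 library (highest edgeR adjusted p 0.090), while PTPRC, the defining leukocyte gene, lay at 0.0734 to 1.23 CPM in overexpressing libraries and 0.265 to 0.695 CPM in wild type libraries. Of 8 lung adenocarcinoma markers 2 were tested, NKX2-1 and KRT7, with log2 fold changes of 1.15 and 1.05 (edgeR adjusted p = 0.12 and 0.16, 0.022 and 0.042 with the block).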
